A study of Mus musculus with 12 samples.

Results

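The genes described here are 36 genes of the G2 phase of the cell cycle and of mitosis, listed by symbol. Each was represented by a probe set annotated to that symbol alone and, where a gene had several, by the one with the highest mean over the 12 arrays. Of the 36 genes, 35 were measured among the 17569 genes tested, and Ccnb1 (cyclin B1) was not analysed here, since 0 probe sets were annotated to it alone. Gene expression was measured on Affymetrix Mouse Genome 430 2.0 arrays in total RNA from the left lung, with 1 mouse per array and 3 mice in each of 4 groups. Nfkb1KO-O3 and Nfkb1KO-Air mice were Nfkb1-/- males that carry the targeted allele Nfkb1tm1Bal, and WT-O3 and WT-Air mice were Nfkb1+/+ males of the strain B6129PF2/J, all 6 to 8 weeks old. The O3 groups breathed 0.3 ppm ozone (O3) without a break for 48 h, and the air groups breathed filtered air in a separate chamber over the same time. Nfkb1 encodes the p105 precursor and the p50 subunit of the transcription factor NF-κB, and the knockout is carried by all cells of the animal. Both stocks were purchased and not bred as littermates, so that the targeted allele and other differences between the stocks cannot be told apart.

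A cell that has copied its DNA enters mitosis when CDK1, held by A- and B-type cyclins, is switched on, and a spindle of microtubules then captures each chromosome at its kinetochore. The spindle checkpoint holds the cell until all kinetochores are attached, after which the anaphase-promoting complex (APC/C) marks securin and cyclin B for destruction, the sister chromatids part, and the cell divides by cytokinesis. The mRNAs of these proteins are made late in the cycle and are low in resting cells, and the adult lung is a tissue of slow turnover in which epithelial and immune cells divide after injury by O3.

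Values below are log2 signals after quantile normalisation. The limit below which a signal was taken as dim was 4.37, the 20th percentile of an array. Of the 35 genes, 31 lay above it on all arrays, and Ccnb2, Ndc80, Dlgap5 and Cdc25c did not, with 1, 1, 4 and 6 arrays at or below it. The probe sets of Cdc25c, Aurkb, Kif2c and Cdc20 are of a type (x_at) whose probes can also bind related transcripts. The specificity of the others was not checked, among them those of type s_at for Cks2, Cdca8, Bub1b, Prc1 and Pttg1. Array 1 of Nfkb1KO-Air stood apart from the rest, with a median deposited signal of 180.1 against 99.14 to 121.2 on the other 11 arrays and rank correlations of 0.915 to 0.93 with them, where those others reached 0.947 to 0.969 among themselves. Array 3 of WT-Air held a high signal of the skeletal muscle myosin Myh4, at 12.3 against 0.668 to 7.94 on the other arrays. Muscle signal was not particular to it, since the skeletal muscle actin Acta1 was at 13.2 there, 11.9 on Nfkb1KO-O3 array 2 and 10.3 on WT-Air array 1. Since 0 probe sets were annotated to Nfkb1 alone, the signal of the targeted gene itself was not analysed here, and the labelled genotypes rest on the labels alone. The labels name no litters, dates or batches, so that p-values measure the spread between these mice. In whole lung, fewer dividing cells and less of these mRNAs per dividing cell cannot be told apart.

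The 35 genes were high in WT-O3 lungs and moved largely as a block. When each gene was centred on its own mean over the 12 arrays, their mean level was -0.28, -0.74 and 0.43 on the 3 Nfkb1KO-O3 arrays, -1.05, 0.44 and -0.08 in Nfkb1KO-Air, 0.59, 0.84 and 0.89 in WT-O3, and -0.30, -0.46 and -0.28 in WT-Air. All 3 WT-O3 arrays lay above the other 9 arrays, whereas the Nfkb1KO groups each held 1 array above 0.4 and the others below 0. On the WT-O3 arrays 33, 35 and 35 of the 35 genes stood above their own mean, against 2, 0 and 32 in Nfkb1KO-O3, 1, 32 and 13 in Nfkb1KO-Air, and 6, 4 and 6 in WT-Air. The WT-O3 mean was the highest of the 4 group means for 34 of the 35 genes, the exception being Pttg1, and for 18 genes each of the 3 WT-O3 arrays exceeded all 9 others. The lowest group mean lay in WT-Air for 18 genes, in Nfkb1KO-Air for 10 and in Nfkb1KO-O3 for 7. The counts in this paragraph were not made over all genes. They describe the 35 genes alone, without a general share to set them against.

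**Figure D1:**
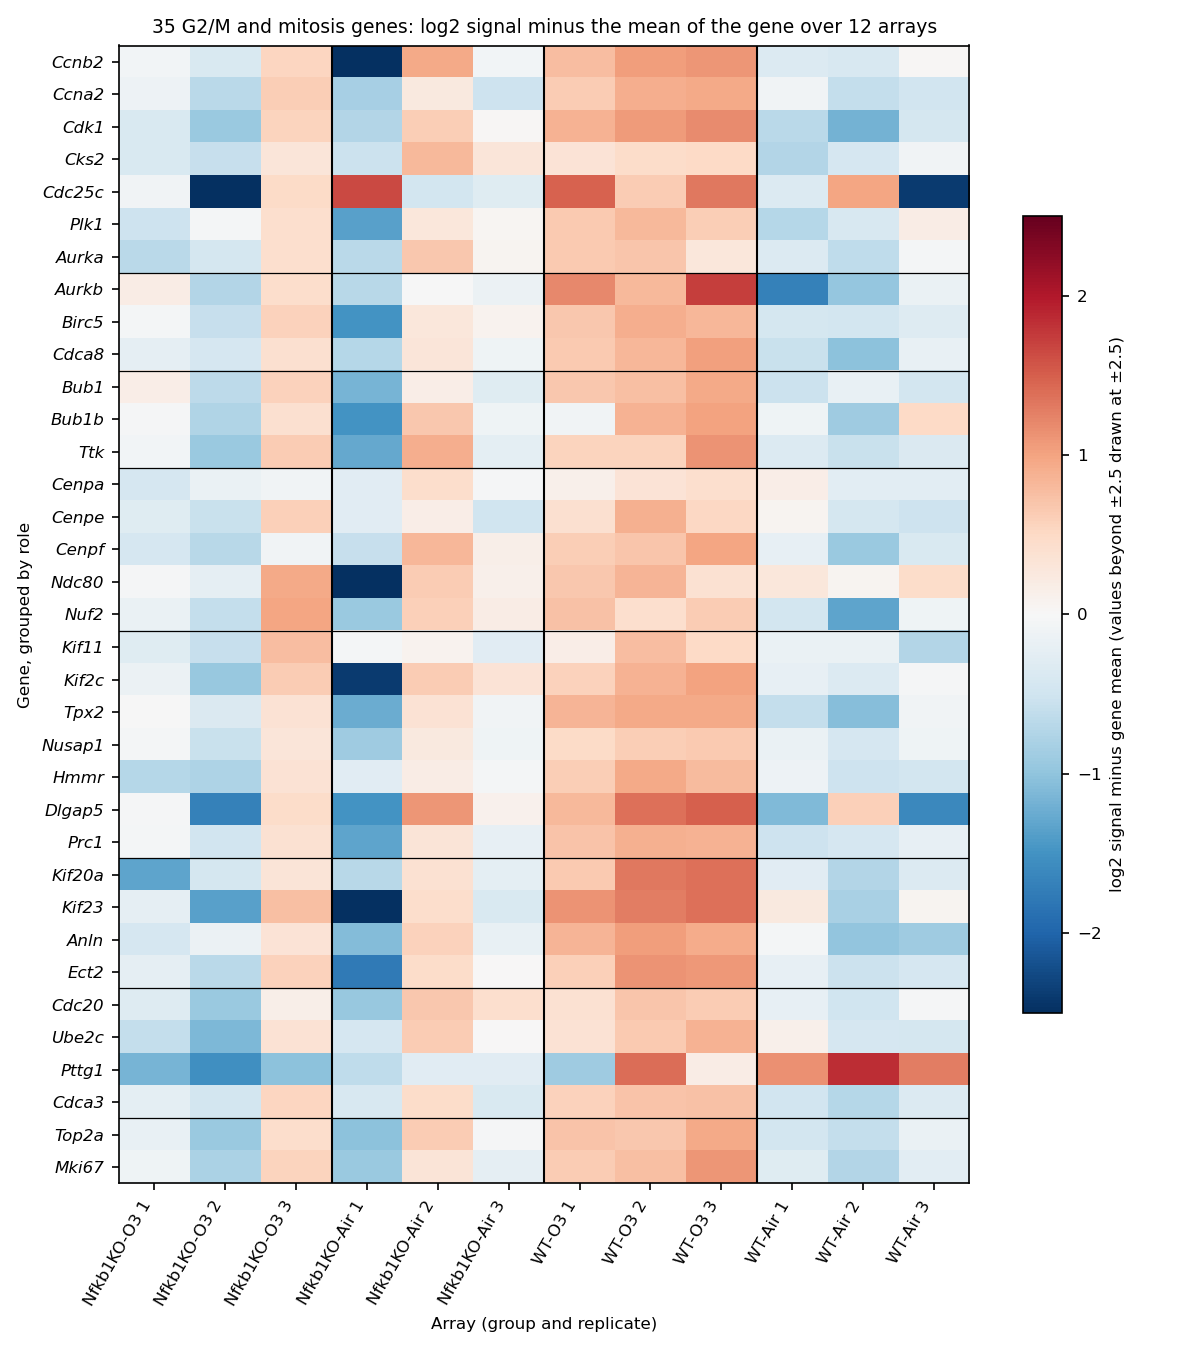
Heatmap of the 35 measured genes (rows, ordered by role) on the 12 arrays (columns, by group and replicate). Colour is the log2 signal minus the mean of that gene over the 12 arrays, and the WT-O3 columns are red for nearly all rows while Nfkb1KO-O3 array 3 and Nfkb1KO-Air array 2 are each above the mean for 32 genes.

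Promoters of these genes are shown because many genes of late mitosis carry a pair of elements near the start of transcription. In textbook terms, the cell cycle genes homology region (CHR, letters TTTGAA) is bound by the MuvB core of the DREAM and B-Myb complexes, and the CCAAT box is bound by NF-Y. The RefSeq promoter table of mouse GRCm38.p6, with 250 bases before and 50 after each annotated start, matched 30 of the 36 genes by symbol. Of the genes with the smallest p for O3 in WT mice, 4 are printed, 5′ to 3′ on the strand of the gene, with capitals at each TTTGAA or CCAAT on either strand, so that TTCAAA and ATTGG also stand in capitals. Their windows were chr4:124936868-124937167 on the minus strand for Cdca8, chr10:69352863-69353162 on the minus strand for Cdk1, chr9:22389157-22389456 on the minus strand for Anln, and chr6:124829926-124830225 on the plus strand for Cdca3. Of the 30 genes, 25 have a window start within 250 bases of their outermost annotated start. Those of Aurka (316 bases), Ect2 (375 and 399), Cdca3 (646), Pttg1 (1482) and Kif2c (3852) lie further inside the gene.
Cdca8: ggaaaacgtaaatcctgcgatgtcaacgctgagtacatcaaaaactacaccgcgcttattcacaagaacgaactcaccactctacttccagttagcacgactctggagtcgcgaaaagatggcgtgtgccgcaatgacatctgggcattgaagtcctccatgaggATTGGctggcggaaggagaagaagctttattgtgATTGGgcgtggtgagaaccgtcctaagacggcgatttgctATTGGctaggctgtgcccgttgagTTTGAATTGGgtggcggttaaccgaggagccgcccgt
Cdk1: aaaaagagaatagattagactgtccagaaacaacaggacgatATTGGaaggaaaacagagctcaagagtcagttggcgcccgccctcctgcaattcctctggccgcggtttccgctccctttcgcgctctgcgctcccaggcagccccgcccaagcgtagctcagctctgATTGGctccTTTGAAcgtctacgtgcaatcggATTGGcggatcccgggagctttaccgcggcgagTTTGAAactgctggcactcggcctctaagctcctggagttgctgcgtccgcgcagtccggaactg
Anln: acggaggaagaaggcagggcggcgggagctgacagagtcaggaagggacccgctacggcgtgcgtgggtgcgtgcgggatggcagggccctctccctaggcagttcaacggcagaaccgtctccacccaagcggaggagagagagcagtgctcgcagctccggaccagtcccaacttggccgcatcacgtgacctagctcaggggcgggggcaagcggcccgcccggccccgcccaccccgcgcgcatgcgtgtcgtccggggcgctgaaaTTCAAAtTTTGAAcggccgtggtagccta
Cdca3: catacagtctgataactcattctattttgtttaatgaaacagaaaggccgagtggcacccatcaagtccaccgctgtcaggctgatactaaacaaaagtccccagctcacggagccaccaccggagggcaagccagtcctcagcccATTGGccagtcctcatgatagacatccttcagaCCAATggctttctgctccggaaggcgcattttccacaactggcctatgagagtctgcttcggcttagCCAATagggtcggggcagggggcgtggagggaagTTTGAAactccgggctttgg

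Cdca8 held 1 TTTGAA and 4 CCAAT, with the TTTGAA beginning 14 bases after the start and sharing its last letter with the fourth CCAAT, which is read on the other strand. Cdk1 held 2 TTTGAA and 3 CCAAT, the TTTGAA beginning 71 and 15 bases before the start. Anln held 2 TTTGAA, 22 and 29 bases after the start, and 0 CCAAT, and Cdca3 held 1 TTTGAA and 3 CCAAT. Over the set, TTTGAA was present in 22 of 30 promoters (73.3%), against 20.2% of the 27025 genes in the table, and it lay within 50 bases of the start in 20 of 30 (66.7%), against 5.72% of all genes. CCAAT was present in 23 of 30 (76.7%), against 41.1% of all genes, and both motifs were present in 19 of 30 (63.3%), against 7.97%. Birc5, Nuf2, Nusap1 and Pttg1 held neither. The NF-κB consensus, searched on both strands, was found in 2 of 30 promoters (6.67%; Birc5 and Kif23), against 6.55% of all genes. In a list of other mitosis genes TTTGAA was present in 27 of 43 promoters (62.8%), and in a list of G1/S and DNA replication genes in 2 of 21 (9.52%). These are matches of letters in 300 bases and were not tested for binding.

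**Figure D2:**
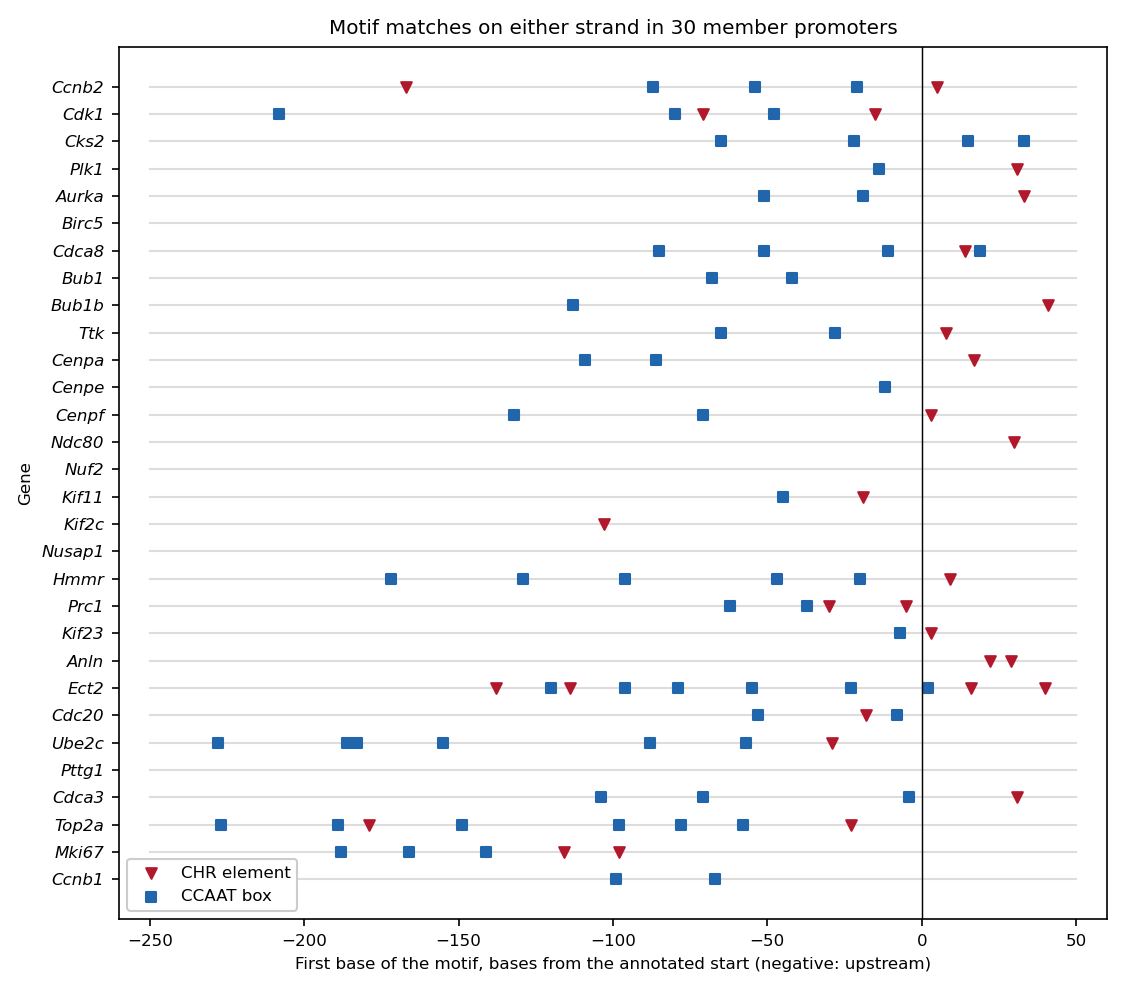
Positions of the CHR letters (triangles) and of the CCAAT box (squares) in the promoters of 30 genes. The horizontal axis is the first base of the match in bases from the annotated start, and 20 of the 30 genes have a CHR match within 50 bases of it.

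Whether O3 changed these genes in lungs with intact Nfkb1 was asked by setting WT-O3 against WT-Air. At an adjusted p under 0.05 (limma, Benjamini-Hochberg over all genes tested), 10 of the 35 genes rose and 0 fell, where 3.16% of all genes tested were called higher and 2.24% lower. The difference was above 0 for 34 genes, where 46.5% of all genes had one above 0. At an unadjusted p under 0.05 there were 29 of 35, where 19.7% of all genes passed in either direction. The 3 WT-O3 arrays lay wholly above the 3 WT-Air arrays for 30 genes, where 13.5% of all genes did so. The median difference of the 35 genes was 1.19 on the log2 scale, and that of all genes was -0.03. The call of a single gene depended on the arrays in the fit. The number called was 3, 2 and 0 without WT-O3 array 1, 2 and 3, and 5, 4 and 4 without WT-Air array 1, 2 and 3. It was 20 and 5 without Nfkb1KO-Air array 1 and 3, and 6 without Nfkb1KO-O3 array 1. Those arrays enter this comparison only through the shared normalisation, filter, choice of probe set and estimate of the spread. The 2 genes called without WT-O3 array 2 were Aurkb, which was higher, and Pttg1, which was lower. With 0 called (without WT-O3 array 3), 22 genes had an unadjusted p under 0.05. The median difference stayed between 1.09 and 1.26 whichever array was left out, and was 1.30 without both Nfkb1KO-Air array 1 and WT-Air array 3.

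Of the 7 measured cyclins and kinases of mitotic entry, 2 rose with O3 in WT lungs and 5 did not pass the test. Of all genes, 3.16% were called higher. Cdk1, the kinase that drives entry into mitosis, was at 7.66, 7.11 and 8.60 in Nfkb1KO-O3, 7.30, 8.65 and 8.07 in Nfkb1KO-Air, 8.91, 9.11 and 9.23 in WT-O3, and 7.37, 6.85 and 7.61 in WT-Air. The WT-O3 arrays were above all 9 others, and the Nfkb1KO groups overlapped widely. The O3 difference of Cdk1 was 1.80 ± 0.38 (SE) in WT (adjusted p = 0.0184) and -0.22 ± 0.38 in Nfkb1KO (adjusted p = 0.791). Ccna2, the cyclin A2 partner of CDK1 and CDK2, was at 7.77, 7.21 and 8.50 in Nfkb1KO-O3, 7.07, 8.13 and 7.38 in Nfkb1KO-Air, 8.52, 8.80 and 8.84 in WT-O3, and 7.80, 7.30 and 7.41 in WT-Air. Its highest Nfkb1KO-O3 array came just below the lowest WT-O3 array. The O3 difference of Ccna2 was 1.22 ± 0.33 in WT (adjusted p = 0.0482) and 0.30 ± 0.33 in Nfkb1KO (adjusted p = 0.645). A second probe set of Ccna2 had nearly the same mean (7.88 against 7.90). It gave 2.15 for O3 in WT and an interaction of -1.97, against -0.92 for the one used. Without WT-Air array 1, 2 or 3 that second probe set was the brighter and stood for the gene, at 1.84, 2.31 and 2.29.

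The other genes of mitotic entry had positive O3 differences in WT that did not pass the test. They were 1.21 ± 0.74 for Ccnb2 (cyclin B2), 1.00 ± 0.40 for Plk1 (polo-like kinase, an activator of CDK1), 0.89 ± 0.36 for Aurka (Aurora A, the centrosome kinase), 0.85 ± 0.30 for Cks2 (a small CDK-binding subunit) and 1.73 ± 1.01 for Cdc25c (a phosphatase that activates CDK1). Ccnb2 was scattered in Nfkb1KO-Air, at 4.28, 8.41 and 7.40. With only the WT arrays in the fit its difference was 1.24 ± 0.18 (limma, adjusted p = 0.0145). Cdc25c was dim and scattered, at 4.21, 1.34 and 4.78 in Nfkb1KO-O3, 5.94, 3.83 and 3.99 in Nfkb1KO-Air, 5.77, 4.92 and 5.60 in WT-O3, and 3.95, 5.27 and 1.90 in WT-Air. Its WT-O3 and WT-Air arrays overlapped. With dim signals raised to the limit, the fold between its WT group means was 1.69. That value is a lower bound for dim signals only and leaves out the spread between arrays.

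The chromosomal passenger complex, which corrects wrong attachments of microtubules to kinetochores, had 2 of its 3 measured genes called higher with O3 in WT. Of all genes, 3.16% were called higher. Aurkb, its kinase Aurora B, was at 6.79, 5.87 and 7.04 in Nfkb1KO-O3, 5.90, 6.59 and 6.45 in Nfkb1KO-Air, 7.79, 7.40 and 8.33 in WT-O3, and 4.91, 5.63 and 6.43 in WT-Air. The WT-O3 arrays were again the highest of all, and the other 3 groups overlapped. Its O3 difference was 2.18 ± 0.43 in WT (adjusted p = 0.0134) and 0.25 ± 0.43 in Nfkb1KO (adjusted p = 0.788). The size of these differences depended on the probe set. The other probe set of Aurkb, also above the limit on all arrays, gave 0.90 for O3 in WT. It gave -0.68 for genotype after O3 and -0.94 for the interaction, against -1.28 and -1.93 for the one used. Cdca8 (borealin, a scaffold of the complex) was at 7.85, 7.66 and 8.49 in Nfkb1KO-O3, 7.37, 8.39 and 7.98 in Nfkb1KO-Air, 8.74, 8.91 and 9.11 in WT-O3, and 7.51, 7.04 and 7.89 in WT-Air. It rose 2.71-fold with O3 in WT (1.44 ± 0.30, adjusted p = 0.0161), against 0.09 ± 0.30 in Nfkb1KO (adjusted p = 0.904). Birc5 (survivin) did not pass, at 1.21 ± 0.40 (adjusted p = 0.106).

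None of the 3 checkpoint kinases was called with O3 in WT, where 3.16% of all genes were called higher. The differences were 1.19 ± 0.35 for Bub1, which recruits checkpoint proteins to kinetochores (adjusted p = 0.0738), 1.16 ± 0.52 for Ttk (MPS1, which starts checkpoint signalling at kinetochores) and 0.76 ± 0.56 for Bub1b (BUBR1, a part of the inhibitor of the APC/C). Among the 5 genes of centromere and kinetochore, Cenpf alone was called, against the same 3.16% of all genes called higher. Cenpf, a large protein of the outer kinetochore, was at 6.69, 6.41 and 7.02 in Nfkb1KO-O3, 6.53, 7.93 and 7.25 in Nfkb1KO-Air, 7.71, 7.80 and 8.09 in WT-O3, and 6.89, 6.16 and 6.73 in WT-Air. All 3 Nfkb1KO-O3 arrays were below the 3 WT-O3 arrays, while array 2 of Nfkb1KO-Air fell among the WT-O3 values. The O3 difference of Cenpf was 1.27 ± 0.34 in WT (adjusted p = 0.048) and -0.53 ± 0.34 in Nfkb1KO (adjusted p = 0.399). Nuf2 (1.22 ± 0.47), Cenpe (0.90 ± 0.35) and Cenpa, the centromeric histone H3 variant (0.40 ± 0.21), did not pass in WT.

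Ndc80, the microtubule-binding subunit of the complex that also holds Nuf2, had the smallest O3 difference in WT among the genes with a positive one. It was at 5.76, 5.56 and 6.74 in Nfkb1KO-O3, 1.61, 6.42 and 5.91 in Nfkb1KO-Air, 6.47, 6.63 and 6.16 in WT-O3, and 6.08, 5.86 and 6.25 in WT-Air. The 4 groups overlapped apart from array 1 of Nfkb1KO-Air, the array that stood apart, where Ndc80 was below the limit. Its O3 difference was 0.36 ± 0.93 in WT (adjusted p = 0.883).

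Of the 7 motors and microtubule proteins of the spindle, 2 rose with O3 in WT, where 3.16% of all genes were called higher. For all 7 the WT-O3 arrays lay wholly above the WT-Air arrays, where 13.5% of all genes did so. Tpx2, which activates Aurora A on the spindle, was at 6.74, 6.40 and 7.11 in Nfkb1KO-O3, 5.51, 7.11 and 6.66 in Nfkb1KO-Air, 7.60, 7.71 and 7.71 in WT-O3, and 6.17, 5.69 and 6.67 in WT-Air. Hmmr, the hyaluronan receptor RHAMM that also binds spindle microtubules, was at 6.24, 6.18 and 7.32 in Nfkb1KO-O3, 6.68, 7.14 and 6.90 in Nfkb1KO-Air, 7.58, 7.90 and 7.75 in WT-O3, and 6.83, 6.44 and 6.50 in WT-Air. Both had their 3 highest arrays in WT-O3. The O3 difference in WT was 1.50 ± 0.39 for Tpx2 (2.82-fold, adjusted p = 0.0451) and 1.15 ± 0.31 for Hmmr (2.22-fold, adjusted p = 0.0479). In Nfkb1KO the same difference was 0.32 ± 0.39 for Tpx2 (adjusted p = 0.689) and -0.32 ± 0.31 for Hmmr (adjusted p = 0.594). The rise of Tpx2 in WT depended on the probe set. Its other probe sets, all above the limit on all arrays, gave -0.17, -0.04 and 0.97 for O3 in WT. Those of Hmmr above the limit on all arrays gave 0.83 and 1.47. The genes of this role that did not pass in WT were Prc1, which bundles the central spindle (1.21 ± 0.35, adjusted p = 0.0627), Nusap1, a microtubule-bundling protein (0.81 ± 0.28), Kif11, the motor that separates the spindle poles (0.84 ± 0.36), Kif2c, a microtubule depolymerase (1.00 ± 0.64), and Dlgap5, which stabilises kinetochore fibres (1.93 ± 0.77, at least 2.69-fold).

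Cytokinesis was covered by 4 genes, whose O3 differences in WT had a median of 1.50. Anln, the scaffold anillin of the contractile ring, was at 8.37, 8.64 and 9.12 in Nfkb1KO-O3, 7.69, 9.35 and 8.60 in Nfkb1KO-Air, 9.64, 9.82 and 9.71 in WT-O3, and 8.73, 7.80 and 7.90 in WT-Air. The 3 WT-O3 arrays lay close together and above the rest. It rose 2.99-fold with O3 in WT (1.58 ± 0.36, adjusted p = 0.0252), against 0.16 ± 0.36 in Nfkb1KO (adjusted p = 0.843). The other probe set of Anln, dimmer at a mean of 5.88 but above the limit on all arrays, gave 0.04 for O3 in WT. Kif20a, a kinesin of the central spindle, was at 4.74, 5.60 and 6.36 in Nfkb1KO-O3, 5.35, 6.43 and 5.80 in Nfkb1KO-Air, 6.70, 7.37 and 7.43 in WT-O3, and 5.77, 5.31 and 5.70 in WT-Air. It missed the threshold in WT, at 1.57 ± 0.44 (adjusted p = 0.0578). Ect2, the exchange factor that activates RhoA at the division plane, was at 1.32 ± 0.46 and Kif23, a motor of the centralspindlin complex, at 1.43 ± 0.66.

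The remaining genes belong to the APC/C and its targets and to chromosome structure. Cdca3, an F-box-like protein that promotes mitotic entry, was at 7.36, 7.16 and 8.15 in Nfkb1KO-O3, 7.20, 8.07 and 7.23 in Nfkb1KO-Air, 8.19, 8.32 and 8.35 in WT-O3, and 7.13, 6.91 and 7.27 in WT-Air. Mki67, the Ki-67 proliferation antigen that coats mitotic chromosomes, was at 8.98, 8.30 and 9.64 in Nfkb1KO-O3, 8.16, 9.40 and 8.85 in Nfkb1KO-Air, 9.72, 9.83 and 10.19 in WT-O3, and 8.77, 8.34 and 8.82 in WT-Air. In both genes the WT-O3 arrays exceeded all 9 others, by a narrow margin over array 3 of Nfkb1KO-O3. The O3 difference in WT was 1.18 ± 0.29 for Cdca3 (2.27-fold, adjusted p = 0.0341) and 1.26 ± 0.33 for Mki67 (2.40-fold, adjusted p = 0.0468). In Nfkb1KO it was 0.06 ± 0.29 for Cdca3 (adjusted p = 0.938) and 0.17 ± 0.33 for Mki67 (adjusted p = 0.819). Dimmer probe sets of Cdca3 gave -0.06 and 0.58 for O3 in WT, the latter from a probe set at or below the limit on 1 array. Top2a, which untangles sister chromatids (1.18 ± 0.38), Cdc20, an activator of the APC/C (0.81 ± 0.36), and Ube2c, its ubiquitin-conjugating enzyme (0.86 ± 0.35), did not pass in WT.

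**Figure D3:**
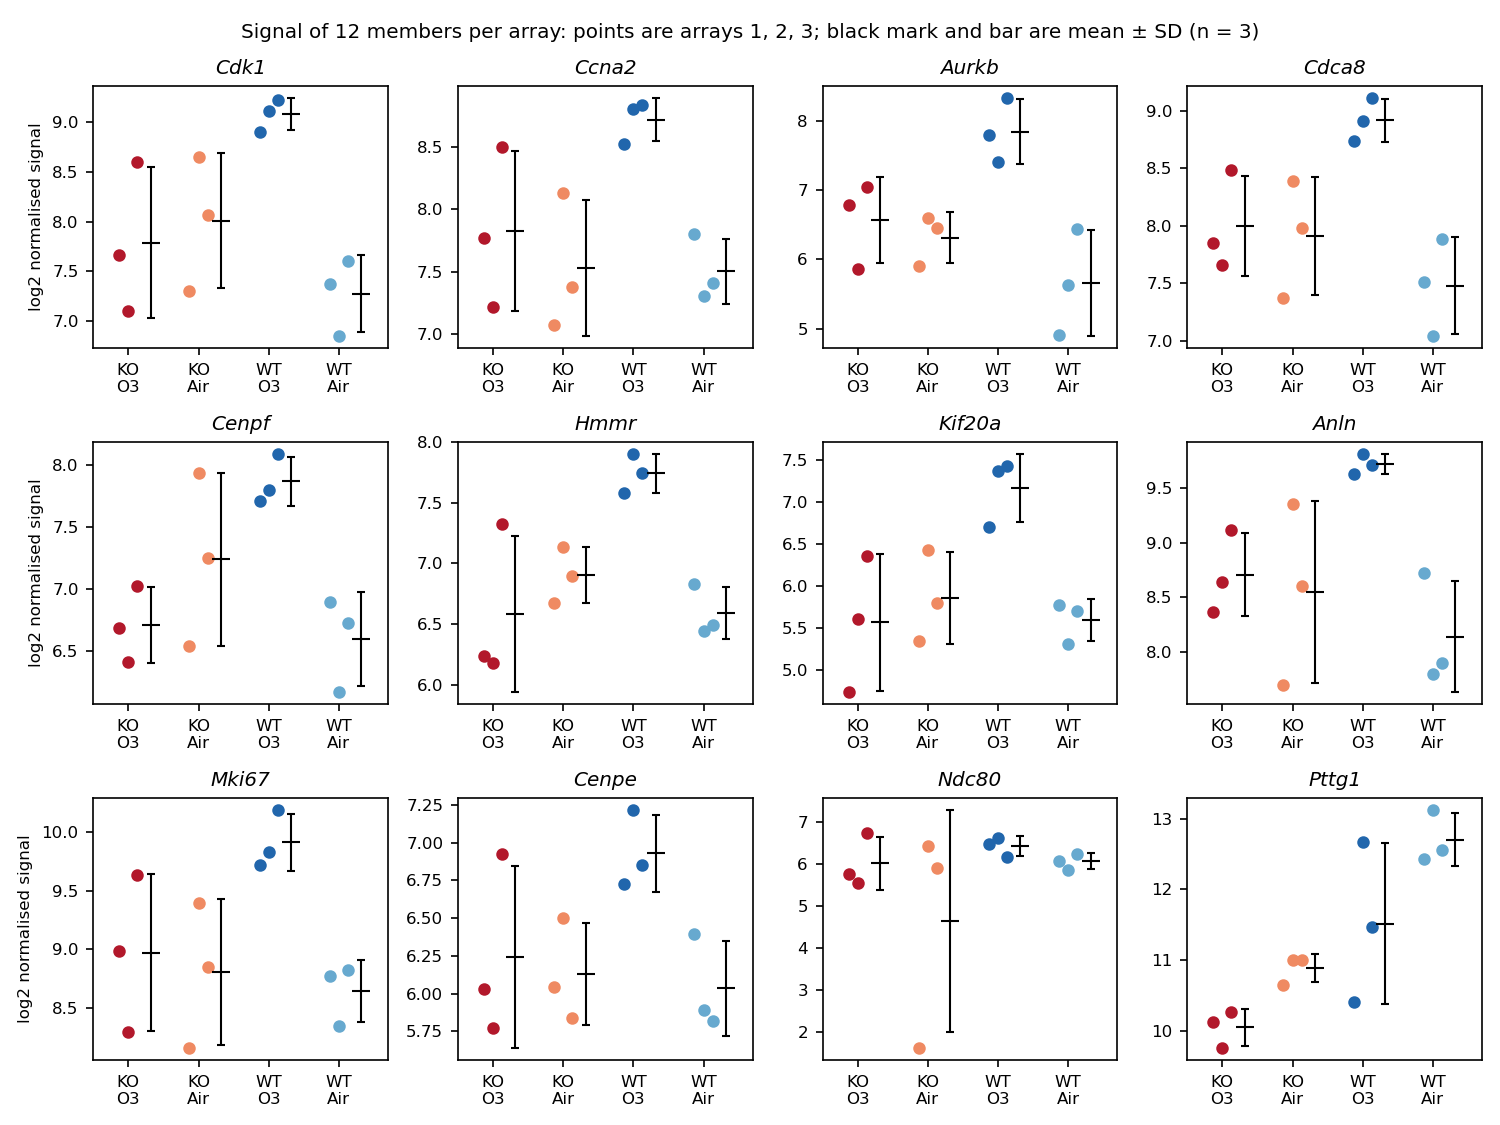
Log2 normalised signal of 12 of the genes on each array (points, 3 per group), with the group mean and SD in black (n = 3). In Cdk1, Aurkb, Cdca8, Hmmr, Anln and Mki67 the WT-O3 points lie above all others, Ndc80 has 1 low point at 1.61 in Nfkb1KO-Air, and Pttg1 is highest in WT-Air.

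After O3, the genes were set against each other by genotype to ask whether the exposed lungs differed in mitotic gene expression. At an adjusted p under 0.05, 0 of the 35 genes were called, where 0.171% of all genes tested were called lower and 0.552% higher. At an unadjusted p under 0.05 there were 21, each lower in Nfkb1KO-O3, where 4.74% of all genes were lower at that level. For 26 of the 35 genes all Nfkb1KO-O3 arrays lay below all WT-O3 arrays, where 9.76% of all genes did so. All 35 differences were below 0, where 49.5% of all genes had one below 0, and they ran between -1.99 for Cdc25c and -0.40 for Ndc80 with a median of -0.92, against 0.00 for all genes. WT-O3 arrays serve both in this comparison and in that of O3 in WT, so that the 2 sets of values are not independent.

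The smallest p among the 35 genes here was that of Hmmr, at -1.16 ± 0.31 (95% interval -1.82 to -0.50, adjusted p = 0.146). Cdk1 had -1.29 ± 0.38 (95% interval -2.12 to -0.46, adjusted p = 0.212), Cenpf -1.16 ± 0.34 (adjusted p = 0.206), Ube2c -1.08 ± 0.35 (adjusted p = 0.269) and Aurkb -1.28 ± 0.43 (adjusted p = 0.295). By role, the median was -1.29 for the 4 cytokinesis genes, -1.01 for the 4 genes of mitotic exit, -0.96 for the 2 genes of chromosome structure, -0.92 for the passenger complex and for the spindle proteins, -0.90 for cyclins and entry kinases, -0.76 for the checkpoint kinases and -0.52 for centromere and kinetochore. The 4 cytokinesis genes had no overlap between the genotypes after O3, where 9.76% of all genes were lower without overlap. This was not particular to cytokinesis. It held for the 3 genes of the passenger complex, the 2 of chromosome structure and 6 of the 7 cyclins and entry kinases. Weighting the arrays by their quality gave 6 genes lower in Nfkb1KO-O3, namely Kif20a, Hmmr, Cenpf, Cdk1, Anln and Cdca8. Pttg1 was called lower without WT-O3 array 1, and Hmmr without Nfkb1KO-O3 array 3. That last array was the highest of its group for 35 of 35 genes, and the median over the genes was -1.20 without it and -0.66 without array 2, the lowest of its group for 30.

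In filtered air the differences between the genotypes fell on both sides of 0. At an adjusted p under 0.05, 0 of 35 were called, where 0.256% of all genes were called higher and 0.0854% lower. At an unadjusted p under 0.05 there was 1 (Pttg1), where 11.3% of all genes passed, and Pttg1 was also the only gene without overlap between Nfkb1KO-Air and WT-Air, lower in Nfkb1KO-Air, where 7.26% of all genes were lower without overlap. Differences were above 0 for 24 genes, where 48.5% of all genes had one above 0, and below 0 for 11, with a median of 0.25 against -0.01 for all genes. Cks2 had 0.60 ± 0.30 (adjusted p = 0.479), Cdk1 0.73 ± 0.38 (adjusted p = 0.499) and Cenpf 0.64 ± 0.34 (adjusted p = 0.502). Cdc25c had the highest difference, 0.88 ± 1.01 (adjusted p = 0.785). The direction of the median rested on single arrays. It was 0.57 without Nfkb1KO-Air array 1 and -0.09 without Nfkb1KO-Air array 2, and 0.66 without both Nfkb1KO-Air array 1 and WT-Air array 3.

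In Nfkb1KO lungs, 0 of the 35 genes were called between O3 and air at an adjusted p under 0.05, where 3.35% of all genes were called higher and 2.83% lower. At an unadjusted p under 0.05 there were also 0, where 21.5% of all genes passed. Pttg1 alone had no overlap between the groups, lower with O3, where 12.3% of all genes were lower without overlap. Differences were above 0 for 22 genes, where 48.6% of all genes had one above 0, and below 0 for 13, and the median was 0.12 against -0.01 for all genes. The widest were 1.37 ± 0.93 for Ndc80 (adjusted p = 0.437), where Nfkb1KO-Air array 1 was the one at 1.61, and -1.14 ± 1.01 for Cdc25c (adjusted p = 0.563). For Cdk1 the 95% interval ran from -1.05 to 0.61, and for Cdca8 from -0.56 to 0.73, intervals that include 0 and changes in either direction. The sign of the median depended on the arrays and on the scaling. It was -0.34 without Nfkb1KO-Air array 1 (5 genes above 0), -0.22 without Nfkb1KO-O3 array 3 (9 genes) and 0.39 without Nfkb1KO-Air array 2 (26 genes). On the deposited scaling, with no further normalisation, it was -0.29 (7 genes above 0), and with array weights -0.06 (14 genes).

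**Figure D4:**
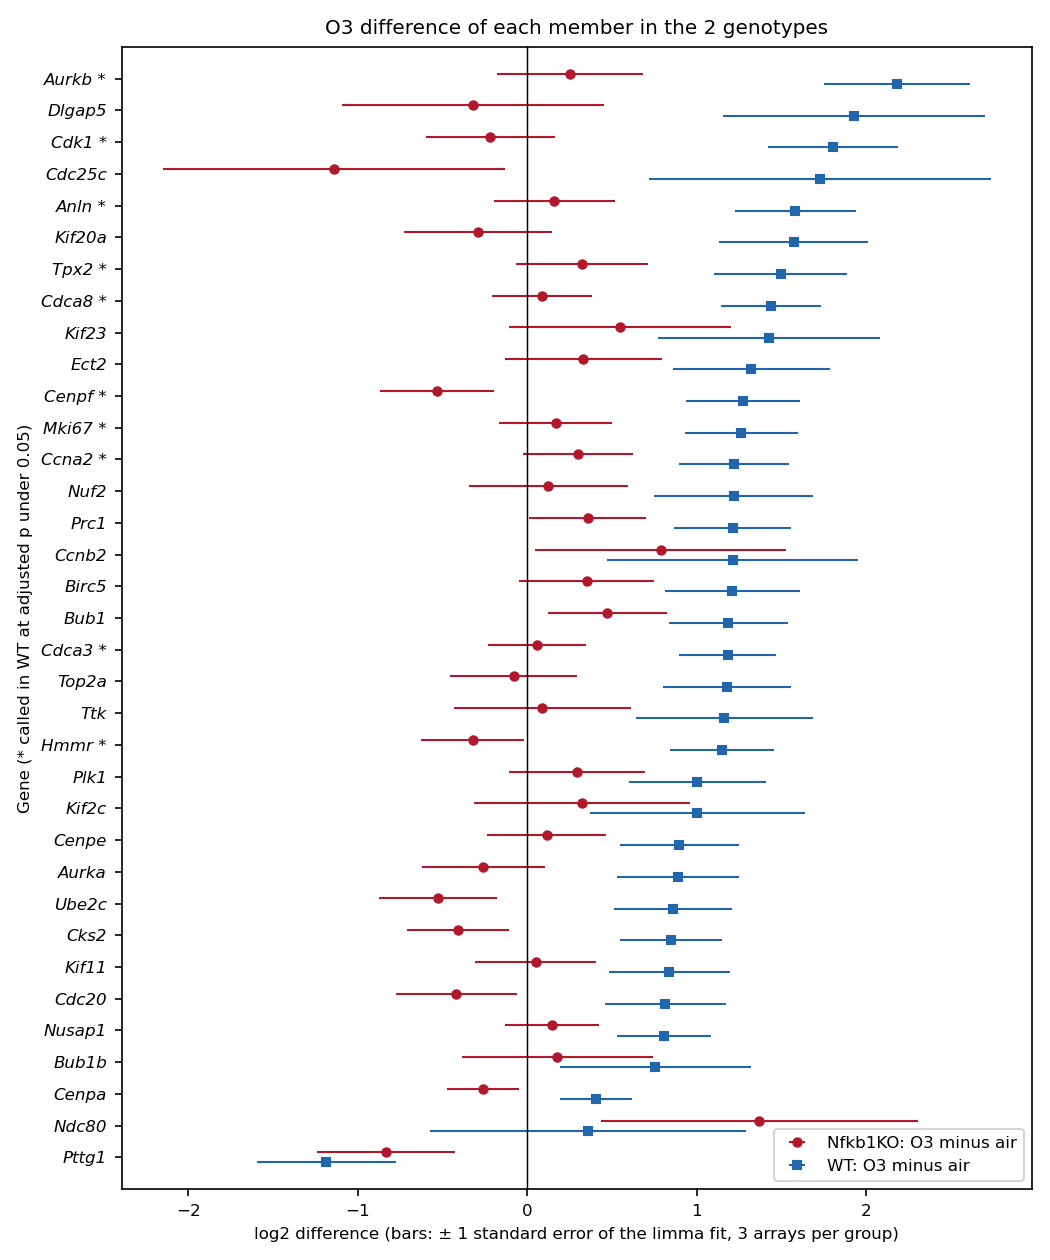
O3 minus air difference of each of the 35 genes on the log2 scale, in Nfkb1KO (circles) and in WT (squares), with bars of 1 standard error of the limma fit (3 arrays per group). In Nfkb1KO the points scatter around 0, with a median of 0.12, and in WT they lie above 0 for 34 genes, with a median of 1.19.

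Whether the O3 change itself differed with genotype was tested with the interaction, the O3 change in Nfkb1KO minus that in WT. At an adjusted p under 0.05, 0 of the 35 genes were called, where 0.0342% of all genes were called higher and 0% lower, so that few genes of any kind passed this test. At an unadjusted p under 0.05 there were 15, each with a negative interaction, where 2.8% of all genes passed with a negative one. The interaction was below 0 for 33 genes, where 48.5% of all genes had one below 0, and above 0 for Pttg1 and Ndc80, with a median of -1.09 against 0.01 for all genes. Cenpf had -1.81 ± 0.48 (95% interval -2.85 to -0.77, adjusted p = 0.637) and Cdk1 -2.02 ± 0.54 (95% interval -3.19 to -0.85, adjusted p = 0.637). Hmmr had -1.47 ± 0.43 (adjusted p = 0.649) and Aurkb -1.93 ± 0.61 (adjusted p = 0.74). The lowest was -2.87 ± 1.43 for Cdc25c (adjusted p = 0.828) and the highest 1.01 ± 1.32 for Ndc80 (adjusted p = 0.918). The median was -1.64 without Nfkb1KO-Air array 1 and -1.69 without both that array and WT-Air array 3. It was -0.77 without Nfkb1KO-Air array 2 and -0.75 without Nfkb1KO-O3 array 2.

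Pttg1, which encodes securin, the inhibitor of separase, followed a pattern of its own. It was at 10.12, 9.75 and 10.26 in Nfkb1KO-O3, 10.65, 10.99 and 10.99 in Nfkb1KO-Air, 10.40, 12.68 and 11.47 in WT-O3, and 12.42, 13.12 and 12.56 in WT-Air. Each group of Nfkb1KO arrays lay below the WT arrays of the same exposure, and the Nfkb1KO-O3 arrays lay below the Nfkb1KO-Air arrays. WT-O3 was spread widely and overlapped WT-Air through its array 2. The difference between genotypes was -1.47 ± 0.41 after O3 (adjusted p = 0.18) and -1.82 ± 0.41 in air (adjusted p = 0.106, 95% interval -2.71 to -0.93). The O3 difference was -0.83 ± 0.41 in Nfkb1KO (adjusted p = 0.262) and -1.19 ± 0.41 in WT (adjusted p = 0.123), and the interaction was 0.35 ± 0.58. The gene had 3 probe sets, and the other 2 gave -1.55 and -0.71 for genotype after O3, -1.88 and -1.97 for genotype in air, -0.73 and -0.15 for O3 in Nfkb1KO and -1.06 and -1.41 for O3 in WT. The smaller of the values after O3 came from a probe set that lay at or below the limit on 1 array.

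Cenpe, the kinetochore motor that brings chromosomes to the spindle equator, lies on chromosome 3 like the targeted gene, with the starts of 6 protein-coding genes between them. It was at 6.03, 5.77 and 6.92 in Nfkb1KO-O3, 6.04, 6.50 and 5.84 in Nfkb1KO-Air, 6.72, 7.22 and 6.85 in WT-O3, and 6.39, 5.89 and 5.82 in WT-Air. Between the genotypes it differed by -0.69 ± 0.35 after O3 (adjusted p = 0.585) and by 0.09 ± 0.35 in air (adjusted p = 0.943), with overlap in both.

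The arrays of Nfkb1KO mice lay further apart in these genes than those of WT mice. The median SD between the 3 arrays of a group was 0.62 in Nfkb1KO-O3 and 0.70 in Nfkb1KO-Air, against 0.17 in WT-O3 and 0.29 in WT-Air. Over all genes the same median was 0.21 in Nfkb1KO-O3, 0.27 in Nfkb1KO-Air, 0.17 in WT-O3 and 0.24 in WT-Air. The range between replicates was widest in Nfkb1KO-Air for 22 genes and in Nfkb1KO-O3 for 11, and in WT-O3 and WT-Air for 1 each. The genes shared this spread, since array 2 was the highest of Nfkb1KO-Air for 33 genes and array 1 the lowest for 32. Part of the spread in Nfkb1KO-Air lies in array 1, the one that stood apart, and its share was not tested. The fit took 1 spread per gene over the 4 groups. Standard errors of differences within WT therefore include the wider spread of Nfkb1KO, and those within Nfkb1KO the narrower spread of WT. Unequal spread between the genotypes was not tested.

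Across the 12 arrays the genes varied together. Over the 595 pairs the median Pearson r was 0.80, and 0.74 when each array was set against its group mean, a description in which the points share groups and normalisation. Nusap1, Top2a and Mki67 were closest to the mean of the other genes, with r of 0.986, 0.981 and 0.974 over 12 arrays, and Pttg1 (0.06), Cdc25c (0.28) and Ndc80 (0.65) were the least alike. Outside the list, of 8771 genes above the median level, those most like the mean level of the 35 were Mcm7 (r = 0.967), Dut (0.962), Cdt1 (0.957), Kif22 (0.954), Mcm5 (0.945), Pclaf (0.942), Rrm2 (0.938), Plk4 (0.926), Mcm4 (0.924) and Tfdp1 (0.917). Of these, Kif22 and Plk4 are on the list of other mitosis genes and Mcm7, Cdt1, Mcm5, Rrm2 and Mcm4 on that of G1/S and DNA replication. Where genes had further probe sets above the limit on all arrays, 19 in all, 14 gave the same sign as the probe set used for genotype after O3 (median -0.68) and 14 for O3 in WT (median 0.61).

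Other genes of the cell cycle were read from 2 lists. Of 52 other mitosis genes measured, 8 rose with O3 in WT and 0 fell, where 3.16% of all genes were called higher, with a median of 0.85 and 50 differences above 0, where 46.5% of all genes had one above 0. Among them were Mad2l1, a checkpoint protein (1.32 ± 0.21, adjusted p = 0.00472), Melk, a mitotic kinase (1.89 ± 0.39, adjusted p = 0.0165), and Smc2, a condensin subunit (0.89 ± 0.20, adjusted p = 0.023). After O3, 0 of the 52 were called between the genotypes, where 0.171% of all genes were called lower and 0.552% higher. The median was -0.58, with 48 differences below 0, where 49.5% of all genes had one below 0. In Nfkb1KO 0 of the 52 were called with O3, where 3.35% of all genes were called higher and 2.83% lower. The median there was 0.22 over the 52 genes. Their level per array followed that of the 35 genes closely (r = 0.980, n = 12).

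Of 24 genes of G1/S and DNA replication, 7 rose with O3 in WT, where 3.16% of all genes were called higher, with a median of 0.77. Among these were Rrm2, a subunit of ribonucleotide reductase (1.56 ± 0.36, adjusted p = 0.026), Ccne2, cyclin E2 (1.75 ± 0.41, adjusted p = 0.0281), and Pcna, the sliding clamp of DNA polymerase (0.68 ± 0.13, adjusted p = 0.0135). In Nfkb1KO 1 of the 24 rose with O3, a share near the 3.35% of all genes called higher. It was Rfc4, a clamp loader subunit, at 0.59 ± 0.16 (adjusted p = 0.0436). The O3 differences in Nfkb1KO were above 0 for 21 of 24, where 48.6% of all genes had one above 0, with a median of 0.42. The mean level of the list was 0.13, -0.17 and 0.59 in Nfkb1KO-O3, -1.24, 0.21 and -0.14 in Nfkb1KO-Air, 0.49, 0.56 and 0.67 in WT-O3, and -0.47, -0.42 and -0.22 in WT-Air. After O3 the genotypes differed in 0 of 24 by the adjusted p, where 0.171% of all genes were called lower and 0.552% higher. The median of the 24 was -0.40. The difference between these lists was not tested.

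**Figure D5:**
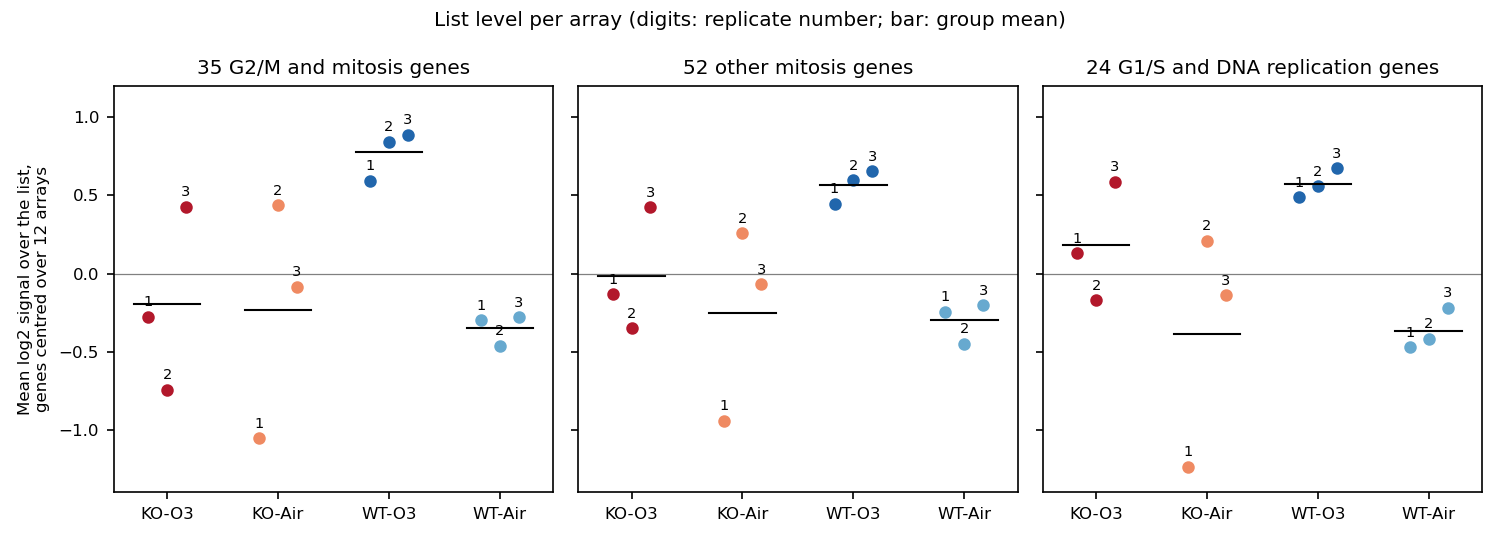
Mean log2 signal of the 35 genes, of 52 other mitosis genes and of 24 G1/S and DNA replication genes on each array, with genes centred over the 12 arrays (digits are replicate numbers, bars group means). Nfkb1KO-O3 array 3 is the highest of its group in all 3 panels, and Nfkb1KO-Air array 1 is the lowest array of all.

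Markers of the cell types of the lung were read beside the level of the 35 genes. Of 17 marker lists, 0 had a measured gene at or below the limit on all arrays. The alveolar type 2 list had the highest r with the mitosis genes over the 12 arrays (0.70, and 0.65 within groups, where each array is set against its group mean, with 5 of 6 markers measured), with a summed linear signal of 83500 to 86200 in Nfkb1KO-O3, 79300 to 83300 in Nfkb1KO-Air, 86600 to 88600 in WT-O3 and 82100 to 86400 in WT-Air. The alveolar type 1 list (r = 0.56, within groups 0.54, 6 of 6 measured) summed to 64500 to 67500 in Nfkb1KO-O3, 54000 to 57500 in Nfkb1KO-Air, 66100 to 71100 in WT-O3 and 60400 to 66600 in WT-Air. The NK cell list had r of opposite signs across and within groups (-0.54 over the 12 arrays and 0.72 within groups, the highest of the 17 lists, 5 of 6 measured), with 2730 to 4440 in Nfkb1KO-O3, 2750 to 3930 in Nfkb1KO-Air, 527 to 668 in WT-O3 and 1170 to 1470 in WT-Air. The ciliated and club cell lists had r of -0.51 and -0.50, and the other 12 lists lay between -0.42 and 0.37. Within groups the T cell and fibroblast lists had r of 0.70 and 0.66. Their part in the results was not tested.

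RNA and labelling controls moved with exposure. The ratio of 3′ to 5′ signal of Gapdh was 0.682 to 0.774 on the 6 O3 arrays and 0.781 to 0.934 on the 6 air arrays, without overlap. The mean log2 signal of the poly-A spike-ins was 8.38 ± 0.25 with O3 and 8.84 ± 0.16 in air (SD, n = 6 each). That of the hybridisation spike-ins was 11.44 ± 0.051 with O3 and 11.66 ± 0.091 in air. The 3′ to 5′ ratio of Actb was 1.228 ± 0.042 with O3 and 1.415 ± 0.087 in air. These values differ in the same direction in both genotypes, and their part in the O3 differences was not tested.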

How the data were processed

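The deposited values were linear signal intensities of probe sets, computed by the authors with MAS5 in Affymetrix Expression Console and scaled to a trimmed mean of 500 per array, without log transformation or quantile normalisation. The versions were not given in the sources used here. Before that, 100 ng of total RNA per mouse had been amplified with the 3′ IVT Plus kit. No detection calls were used. Precision is limited by the number of arrays.

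From the 45101 probe sets, 64 control probe sets were left out. Signals under 1 were raised to 1, and the log2 values were quantile normalised over the 12 arrays. Probe sets above the 20th percentile (log2 4.37) on 1 or more arrays were retained, 42559 in all. Gene names came from the platform annotation, in which 34958 probe sets had 1 symbol, 932 had several and 9211 had none. Only those with 1 symbol were used, the brightest standing for the gene in the 8630 genes with several, for 17569 genes.

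Differences were tested with limma 3.58.1 in R 4.3.3, with 1 mean per group over all 12 arrays, empirical Bayes moderation with a mean-dependent trend (12.6 degrees of freedom) and Benjamini-Hochberg adjustment over all genes. The 5 comparisons were genotype after O3, genotype in air, O3 in Nfkb1KO, O3 in WT and their interaction. Errors of differences are standard errors of this fit. With 3 against 3 arrays, an exact two-sided permutation test cannot go below p = 0.1, and none was used. If any array of the dimmer group was at or under 4.37, the fold is a lower bound, computed after raising low values to that limit. Such a bound is on the fold between group means and leaves out the spread between arrays. The code was tested on simulated data with known changes.

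Named with values per array were the genes called in any comparison, those with the highest and lowest difference in each, and Mki67, Cdk1, Pttg1 and Cenpe. Kif20a was added after its values were seen. From each list of other cell cycle genes, up to 4 genes with the smallest p in a comparison and those called could be named. The 36 genes, the 5 lists of other cell cycle genes and the 17 marker lists were chosen with earlier results of these data known. Replicate numbers were checked for pairing and did not pair the arrays.

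Alternatives were other normalisations, a higher signal floor, no filter, averaging over a gene's probe sets, other models of the spread, other sets of arrays, a replicate block and the methods' t-test. The protein of Pttg1 was not used here.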

Additional observations from a re-analysis of the deposited data

How the results depend on the processing

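The 10 genes called with O3 in WT numbered 3 with arrays centred on their medians, 6 with signals under 16 set to 16, 4 with a gene's probe sets averaged, 2 without the trend in the spread, 1 without moderation, 18 with array weights and 22 with only the compared arrays. Leaving out 1 array gave 0 (without WT-O3 array 3) to 20 (without Nfkb1KO-Air array 1). Over 23 alternatives Aurkb was called in 22, Cdca8 and Cdk1 in 19 each, Anln in 14, Ccna2 and Cdca3 in 11, Tpx2 in 9, Mki67 in 8, and Cenpf and Hmmr in 6. Where arrays were left out, the brightest probe set of a gene was chosen again. For Ccna2 it changed without WT-Air array 1, 2 or 3, so that its count mixes 2 probe sets. For genotype after O3, where 0 genes were called, array weights gave 6, only the compared arrays 1 (Anln), and leaving out 1 array 0 to 1. For genotype in air, also 0, only the compared arrays gave 1 (Pttg1), the methods' t-test 1 before adjustment (Pttg1, lower, where 6.73% of all genes passed) and 0 after it, and leaving out 1 array 0 to 1 (Pttg1, without WT-O3 array 1 or 2). For O3 in Nfkb1KO, only the compared arrays gave 1 (Pttg1, lower), and leaving out 1 array gave 0. The interaction gave 0 under all alternatives run. Its median of -1.09 was -1.69 without both Nfkb1KO-Air array 1 and WT-Air array 3, and -1.64 to -0.75 with 1 array left out. The causes of these differences were not tested. Results of named genes that were called or exceeded 2 standard errors in the main fit numbered 35, mainly genotype after O3, O3 in WT and the interaction. Of their values under alternatives, 677 stayed on their side of the threshold in the same direction, 13 newly passed it, 105 no longer did, and 0 changed sign. Since these results were picked by their size, a change of sign was unlikely from the start, and the 0 is no measure of stability. The O3 differences in Nfkb1KO were not among these results except for Pttg1, and did change sign: 22 of the 35 genes were above 0, but 5 without Nfkb1KO-Air array 1.

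The replicate block, which takes the replicate number of the labels as a term, gave 4 of the 35 genes for O3 in WT and left the counts of these genes at 0 in the other 4 comparisons. Over all genes it gave 725 calls for O3 in WT, against 949 without it. Deviations of same-numbered arrays from their group means had r of -0.166 to 0.107, with 1 of 18 pairs over 0.1, so that the numbers give no evidence of pairing.

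The smallest difference called among the 35 genes was 1.15 (Hmmr, O3 in WT), with 3 arrays per group. Size alone did not decide a call. For O3 in WT, larger differences such as those of Dlgap5 (1.93) and Kif20a (1.57) did not pass. Outside the 35 genes, Cdkn2d was called at 0.35. Dim signals limit Cdc25c and Dlgap5, and the single array that decided Ndc80 in Nfkb1KO-Air limits that gene.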

Other observations

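Of 17 CDK inhibitors and arrest genes measured, 3 rose and 1 fell with O3 in Nfkb1KO, where 3.35% of all genes were called higher and 2.83% lower, and the median was 0.16. In WT 3 rose and 0 fell, where 3.16% of all genes were called higher and 2.24% lower, and the median was 0.04. Of these genes, Gadd45g was called in both genotypes. Gadd45b (0.45 ± 0.10, adjusted p = 0.0213) and Cdkn2d (0.35 ± 0.09, adjusted p = 0.0478) were called in WT alone. Cdkn1a, which encodes the CDK inhibitor p21, was at 12.06, 11.74 and 12.48 in Nfkb1KO-O3, 10.96, 10.69 and 10.52 in Nfkb1KO-Air, 11.73, 10.92 and 10.71 in WT-O3, and 10.72, 10.98 and 9.92 in WT-Air. All Nfkb1KO-O3 arrays were above all other arrays. Cdkn1a rose 2.58-fold with O3 in Nfkb1KO (1.37 ± 0.30, adjusted p = 0.0189), and between the genotypes after O3 it differed by 0.97 ± 0.30 (adjusted p = 0.232). Its interaction was 0.79 ± 0.42 (adjusted p = 0.831), so that a difference in the O3 response of Cdkn1a was not shown. Gadd45g, a gene induced by stress, rose with O3 in both genotypes, by 1.40 ± 0.16 in Nfkb1KO (adjusted p = 0.00102) and by 1.04 ± 0.16 in WT (adjusted p = 0.00378). Cdkn2b (p15, an inhibitor of CDK4 and CDK6) rose and Cdkn1b (p27) fell with O3 in Nfkb1KO, at 0.70 ± 0.12 (adjusted p = 0.0055) and -0.58 ± 0.15 (adjusted p = 0.0464). In both genes the genotypes were close after O3 and further apart in air. Group means of Cdkn2b were 10.37 in Nfkb1KO-O3, 9.67 in Nfkb1KO-Air, 10.43 in WT-O3 and 10.20 in WT-Air. Those of Cdkn1b were 11.51, 12.08, 11.45 and 11.77 in the same order.

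Of 11 D-type cyclins and growth factor genes, 2 rose and 2 fell with O3 in Nfkb1KO (median -0.15), where 3.35% of all genes were called higher and 2.83% lower. In WT 2 rose and 1 fell (median -0.05), where 3.16% of all genes were called higher and 2.24% lower. Hbegf and Ereg, both ligands of the EGF receptor, rose in both genotypes. The genes that fell were Ccnd1 and Fgf7 (-0.56 ± 0.15, adjusted p = 0.0483) in Nfkb1KO and Ccnd2 (-0.45 ± 0.10, adjusted p = 0.0293) in WT. Of 22 cell cycle transcription factors, 1 rose with O3 in Nfkb1KO (Myc), a share near the 3.35% of all genes called higher. In WT 2 rose (Myc and Lin54), where 3.16% of all genes were called higher. Myc was at 8.82, 8.72 and 8.98 in Nfkb1KO-O3, 6.57, 7.65 and 7.66 in Nfkb1KO-Air, 9.06, 9.38 and 8.96 in WT-O3, and 8.02, 7.67 and 7.87 in WT-Air. It rose by 1.54 ± 0.26 in Nfkb1KO (adjusted p = 0.00567) and by 1.28 ± 0.26 in WT (adjusted p = 0.0147), without overlap between O3 and air arrays in either genotype. Hbegf rose by 1.15 ± 0.15 in Nfkb1KO (adjusted p = 0.00157) and by 1.35 ± 0.15 in WT (adjusted p = 0.000546). Ccnd1, the cyclin D1 that couples such ligands to CDK4, fell with O3 in Nfkb1KO (-0.63 ± 0.13, adjusted p = 0.0131), and its interaction of -0.64 ± 0.18 did not pass (adjusted p = 0.645).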
